A study of Mus musculus with 8 samples.

Results

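The genes described here encode the proteins of the extracellular matrix, the enzymes that modify collagen, and the proteases and protease inhibitors that act on the matrix. A list of 51 genes was taken, and 49 of them had a probe set with 1 named gene, out of 18193 genes measured. Spp1 and Loxl2 were not analysed here. Since 33 of the 49 had more than 1 probe set, the one of highest mean level stood for the gene. By role there were 6 fibrillar and fibril-associated collagens, 7 chains of basement membrane and microfibrillar collagens and laminin, 9 collagen processing enzymes, 9 matrix glycoproteins and proteoglycans, 8 matrix metalloproteinases, 3 inhibitors of them, and 7 ADAM and ADAMTS proteases.

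Collagen chains are hydroxylated and folded in the endoplasmic reticulum with the help of prolyl and lysyl hydroxylases and a chaperone, and are cross-linked outside the cell by lysyl oxidases. Fibrillar collagens are chiefly made by fibroblasts and related stromal cells. Macrophages are known for secreted and membrane-bound metalloproteinases that cut matrix proteins and shed cell surface proteins, and glucocorticoids are known to act on many genes of these cells through nuclear receptors.

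RNA was measured on 8 Affymetrix mouse arrays. The cells were macrophages drawn to the peritoneal cavity by 3% thioglycolate, collected after 4 days and kept by adherence, from male C57BL6/J mice. The knockout groups were MR fl / fl, LysM cre, in which Cre made from the lysozyme M locus of myeloid cells deletes the floxed gene of the mineralocorticoid receptor, Nr3c2. The control groups were MR fl / fl without Cre, so both genotypes carried the floxed alleles. Each genotype was cultured for 24 h with 1 µM corticosterone, the main glucocorticoid of mice, or was left untreated, which gave 2 arrays for each of 4 groups: knockout with corticosterone, knockout untreated, control with corticosterone and control untreated. The labels call the arrays biological replicates and state that each sample was a pool of triplicate experiments. A p-value here reflects only how far such pools differ, which may be in part technical. The comparisons ask which transcripts follow the hormone, which follow the receptor, and whether the response to the hormone depends on the receptor.

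The deposited values are log2 levels, and all values below are log2 levels or differences of them. They are relative within an array, and the number of arrays limits the precision. Nr3c2 read 5.11 and 5.47 in knockout cells with corticosterone against 6.39 and 6.13 in control cells with corticosterone. Without hormone it read 5.54 and 5.82 in knockout cells against 6.39 and 8.46 in control cells, and no knockout array reached the lowest control array. Of 4 defining macrophage markers, Csf1r, Lyz2 and Cd68 lay between 13.42 and 13.78 on all 8 arrays, and Adgre1 read 11.92 on control untreated replicate 2 against 12.54 to 12.75 on the other 7. Of all 16 macrophage markers measured, 14, Cd68 and Adgre1 among them, read lower on control untreated replicate 2 than on each of the other 7 arrays. Only 1, Lyz2, read higher there than on all of them, and 1 lay within their range. Of all genes, 53.9% read lower on control untreated replicate 2 than on replicate 1, and the share below all other 7 arrays was not counted. That array differed from the other 7 in quality. It correlated with them at a median of 0.916, against 0.995 to 0.996 for each of the others, and the signal of its Actb control probes was 2.18 higher at the 3′ end than at the 5′ end, against 0.41 to 0.62 elsewhere. Results are therefore given without it (7 arrays, where the control untreated group is 1 array assumed to vary like the others) and with it (8 arrays). A gene is said to have risen or fallen, or to be called, where limma's p-value adjusted over all 18193 genes was under 0.05. By this rule Nr3c2 was lower in knockout cells with corticosterone with 7 arrays, by 0.97 (limma adjusted p = 0.029). Without hormone its difference of -0.71 with 7 arrays was not called, and with 8 arrays Nr3c2 was called in neither setting.

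Promoter windows from RefSeq, build GRCm38.p6, running from 250 bases before to 50 bases after a transcription start, were at hand for 32 of the 49 genes, in 37 windows. The pair Col4a1 and Col4a2, which encode the alpha chains of the main collagen IV molecule, is shown because the genes lie head to head and both were higher in knockout cells. Their start sites are 21 bases apart on opposite strands, and capitals mark the 78 bases that both windows cover:
Col4a1, chr8:11312777-11313076, minus strand: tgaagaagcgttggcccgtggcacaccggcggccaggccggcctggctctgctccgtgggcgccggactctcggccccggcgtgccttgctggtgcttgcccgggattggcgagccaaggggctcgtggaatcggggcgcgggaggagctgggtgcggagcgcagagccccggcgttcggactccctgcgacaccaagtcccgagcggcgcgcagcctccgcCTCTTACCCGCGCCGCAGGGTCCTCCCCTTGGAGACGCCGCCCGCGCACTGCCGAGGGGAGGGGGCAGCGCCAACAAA
Col4a2, chr8:11312555-11312854, plus strand: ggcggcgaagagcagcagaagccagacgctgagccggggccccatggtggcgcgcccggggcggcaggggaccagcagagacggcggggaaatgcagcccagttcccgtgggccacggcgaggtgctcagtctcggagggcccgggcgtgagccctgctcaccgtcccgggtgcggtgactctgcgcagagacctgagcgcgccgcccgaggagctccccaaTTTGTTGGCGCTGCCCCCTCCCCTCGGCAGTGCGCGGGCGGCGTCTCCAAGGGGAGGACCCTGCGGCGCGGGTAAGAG

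The windows of Mmp13 and Mmp8, collagenases with genes on the same chromosome that both rose with corticosterone, are shown with the TGANTCA letters of an AP-1 site in capitals:
Mmp13, chr9:7272264-7272563, plus strand: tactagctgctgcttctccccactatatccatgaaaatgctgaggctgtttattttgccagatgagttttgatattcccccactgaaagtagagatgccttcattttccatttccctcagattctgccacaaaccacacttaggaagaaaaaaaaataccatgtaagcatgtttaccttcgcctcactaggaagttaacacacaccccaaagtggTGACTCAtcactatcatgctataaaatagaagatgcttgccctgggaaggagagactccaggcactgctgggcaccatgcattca
Mmp8, chr9:7558179-7558478, plus strand: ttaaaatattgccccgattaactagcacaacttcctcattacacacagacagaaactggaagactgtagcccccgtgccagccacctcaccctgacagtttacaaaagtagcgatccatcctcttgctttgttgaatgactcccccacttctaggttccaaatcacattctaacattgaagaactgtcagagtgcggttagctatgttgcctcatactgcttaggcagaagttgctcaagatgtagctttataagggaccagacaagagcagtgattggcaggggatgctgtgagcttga
In Mmp13 the match TGACTCA lay 35 to 29 bases before the start, and these letters are not in the Mmp8 window. TGANTCA reads alike on both strands and was in 4 of the 37 windows (10.8%; Col6a1, Mmp12, Mmp13 and Mmp3), against 7.81% of all 32851 windows. AGAACA, the core letters of a glucocorticoid response element, searched on both strands as AGAACA and TGTTCT, was in 2 of the 37 windows (Mmp12 and Sparc) against 19.0% of all windows. It was in 0 of the 11 windows of genes raised by corticosterone. Neither match shows that a factor binds there.

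The matrix genes separated on control untreated replicate 2. Of the 49 genes, 25 (51.0%) read over 2 log2 units higher there than on replicate 1, against 8.80% of all genes (1601 of 18193), while 10 were higher by 2 or less and 14 were lower. With the mean of all probe sets of a gene, 23 (46.9%) read over 2 higher. P4ha1, Adam10 and Mmp14, higher by 2 or less on the probe set of highest mean, were then lower (-1.43, -1.25 and -0.04). Fn1, lower on that probe set, was then higher (0.46). The genes were taken up with the high collagen level of this array already known, so these shares describe the array and are not a test. The median excess was 3.72 for the 6 fibrillar and fibril-associated collagens and 4.14 for the 7 basement membrane and microfibrillar genes, against -0.31 for the 8 matrix metalloproteinases and -0.36 for the 7 ADAM and ADAMTS proteases. Col14a1, a fibril-associated collagen, read 5.87 and 5.58 in knockout cells with corticosterone, 5.48 and 6.32 in untreated knockout cells, 5.40 and 5.58 in control cells with corticosterone, and 4.87 and 10.56 in untreated control cells. Its excess of 5.69 on that array was the largest of the 49. Vcan, the large proteoglycan versican, read 11.35 there against 6.45 to 7.55 on the other arrays.

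Mmp2, the type A gelatinase, is a metalloproteinase that moved with the collagens rather than with the other proteases: it read 12.04 on control untreated replicate 2 against 6.84 to 7.61 elsewhere. Col6a3, a chain of microfibrillar collagen VI, read 10.60 against 5.75 to 6.64. Tnc, the glycoprotein tenascin C, read 10.99 against 6.11 to 7.35, and Serpinh1, the collagen chaperone, read 12.12 against 7.78 to 9.18. The same held for 2 genes picked after their values were seen, the inhibitor Timp3 (10.85 against 6.71 to 7.74) and Adam12 (9.81 against 5.52 to 6.47), so the split did not follow the protein families. Col1a2 and Col3a1, chains of the fibrillar collagens I and III, read 12.53 against 8.81 to 9.69 and 13.04 against 9.60 to 10.28. Col1a1, the other chain of collagen I, read 13.27 against 11.84 to 12.23, and its other probe set was 4.01 higher on replicate 2 than on replicate 1, so the 2 probe sets disagreed on the size of the excess.

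Fewer of the 49 genes than of all genes were lower on that array than on replicate 1, 14 (28.6%) against 53.9%, and 10 of the 14 were proteases or their inhibitors. Mmp19 read 8.92 against 10.74 to 11.32, the largest deficit of the 49 genes on the brightest probe sets, and Mmp13 read 8.59 against 9.54 to 10.19. Timp1, a secreted metalloproteinase inhibitor, read 7.51 against 8.89 to 9.63, and Timp2 read 12.69 against 12.83 to 12.92. The probe sets of Timp2 disagreed on the size, since the other 5 differed from replicate 1 by -0.73 to -4.31. With the mean of all probe sets, Adam15 (-2.28) and Timp2 (-2.18) had larger deficits than Mmp19 (-1.69). Adam8, a protease of leukocytes, read 12.40 against 12.88 to 13.22. Adam17, which sheds tumour necrosis factor, read 11.60 against 12.19 to 12.38. Mmp12, the macrophage elastase, was level, at 13.42 there against 13.23 to 13.40 on the other 7 arrays. Loxl3 (2.08) and Sparc (2.15) lay just over the step of 2 log2 units, and Plod2 (1.97) and Thbs1 (1.43) just under it.

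**Figure D1:**
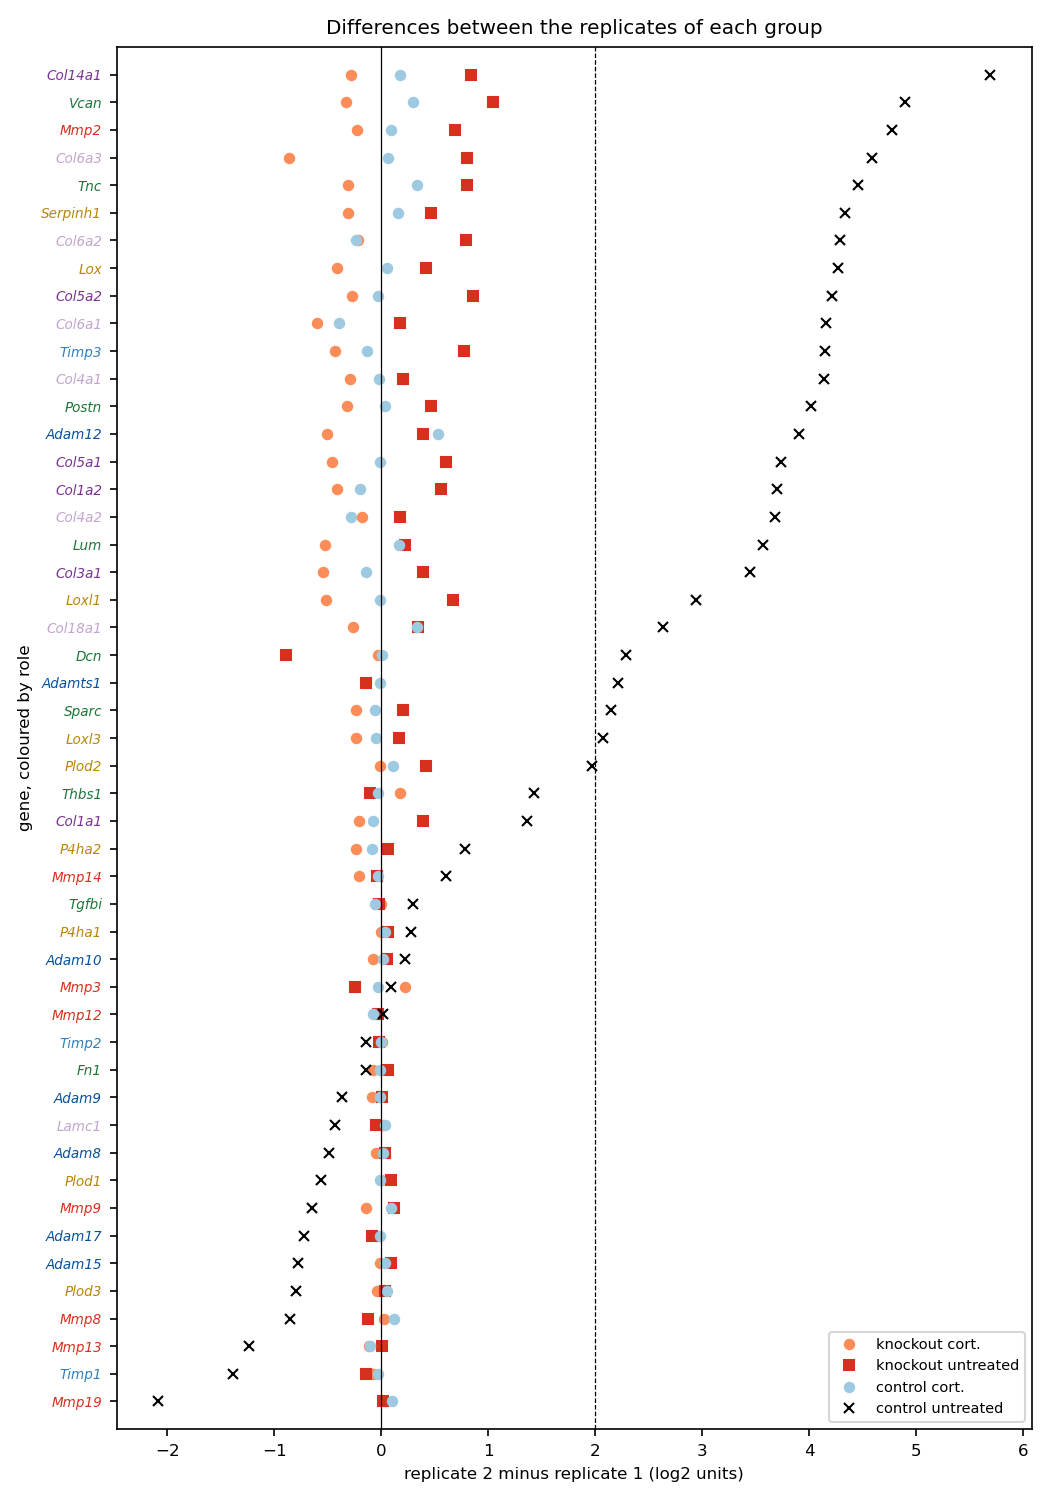
Difference of replicate 2 minus replicate 1 in log2 units for each of the 49 genes (rows, sorted by the difference in untreated control cells and coloured by role), with a symbol for each of the 4 groups. The untreated control pair (crosses) runs from -2.08 for Mmp19 to 5.69 for Col14a1, and the dashed line marks 2 log2 units.

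Smaller shifts of the same genes were seen within both knockout groups. Among the 25 genes over the step, knockout untreated replicate 2 read above replicate 1 in 23 (median difference 0.47), and knockout corticosterone replicate 1 read above replicate 2 in 25 (median 0.31). In control cells with corticosterone replicate 1 was above replicate 2 in 13 of the 25, with a median of 0.01. Of the 10 genes higher by 2 or less, 5 shifted the same way in untreated knockout cells and 7 in knockout cells with corticosterone (medians 0.02 and 0.03). Of the 14 lower genes 9 and 10 did (medians 0.01 and 0.03). The share of all genes that shifted in these ways was not counted, and the directions were taken with earlier results of these data known. Over all genes, replicate 1 minus 2 in untreated control cells correlated with that in untreated knockout cells at 0.40. For knockout cells with corticosterone the correlation was -0.29, and for control cells with corticosterone -0.03. Such shifts were thus not confined to the matrix genes. Beside this, the mean of 30 fibroblast and mesothelial markers was 7.80 on control untreated replicate 2 and between 5.85 and 6.17 on the other 7 arrays. Pdgfra, a receptor of fibroblasts, read 12.05 there against 7.73 to 8.57, and Pdgfrb read 7.38 against 5.37 to 5.80. How many of all genes lay outside the range of the other 7 arrays was not counted, so the next counts have no background share beside them. Of the 30 markers 19 read above all other arrays, 3 below them all and 8 within their range. The fibroblast markers Pdpn (12.71 against 12.46 to 12.82) and Tcf21 (3.05 against 2.73 to 3.26) lay within it. Of the mesothelial markers, Msln (3.82 against 3.75 to 4.81) and Upk3b (5.36 against 5.29 to 6.002) lay within it, Lrrn4 (3.37 against 3.83 to 4.26) below it, and Wt1 (6.63 against 4.25 to 5.26) above it. Tcf21, Msln and Lrrn4 read under the array medians of 5.55 to 5.58 on all 8 arrays, a low level at which small differences say little. The mean of 10 endothelial markers was 6.77 against 5.16 to 5.58, with Tek at 10.08 against 3.71 to 5.52 but Pecam1 at 5.42 against 3.73 to 4.51 and Cdh5 at 4.48 against 3.24 to 3.75. Of these 10 markers 7, Kdr among them, read above all other arrays, 2 (Eng and Vwf) below them all and 1 within their range. The mean of 16 macrophage markers was 12.15 against 12.68 to 12.71, and that of 11 cell cycle genes was 10.60 against 8.09 to 9.41. Their part in the collagen signal was not tested. In a culture measured as a whole, a change in the share of a cell type and a change in RNA per cell cannot be told apart.

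**Figure D2:**
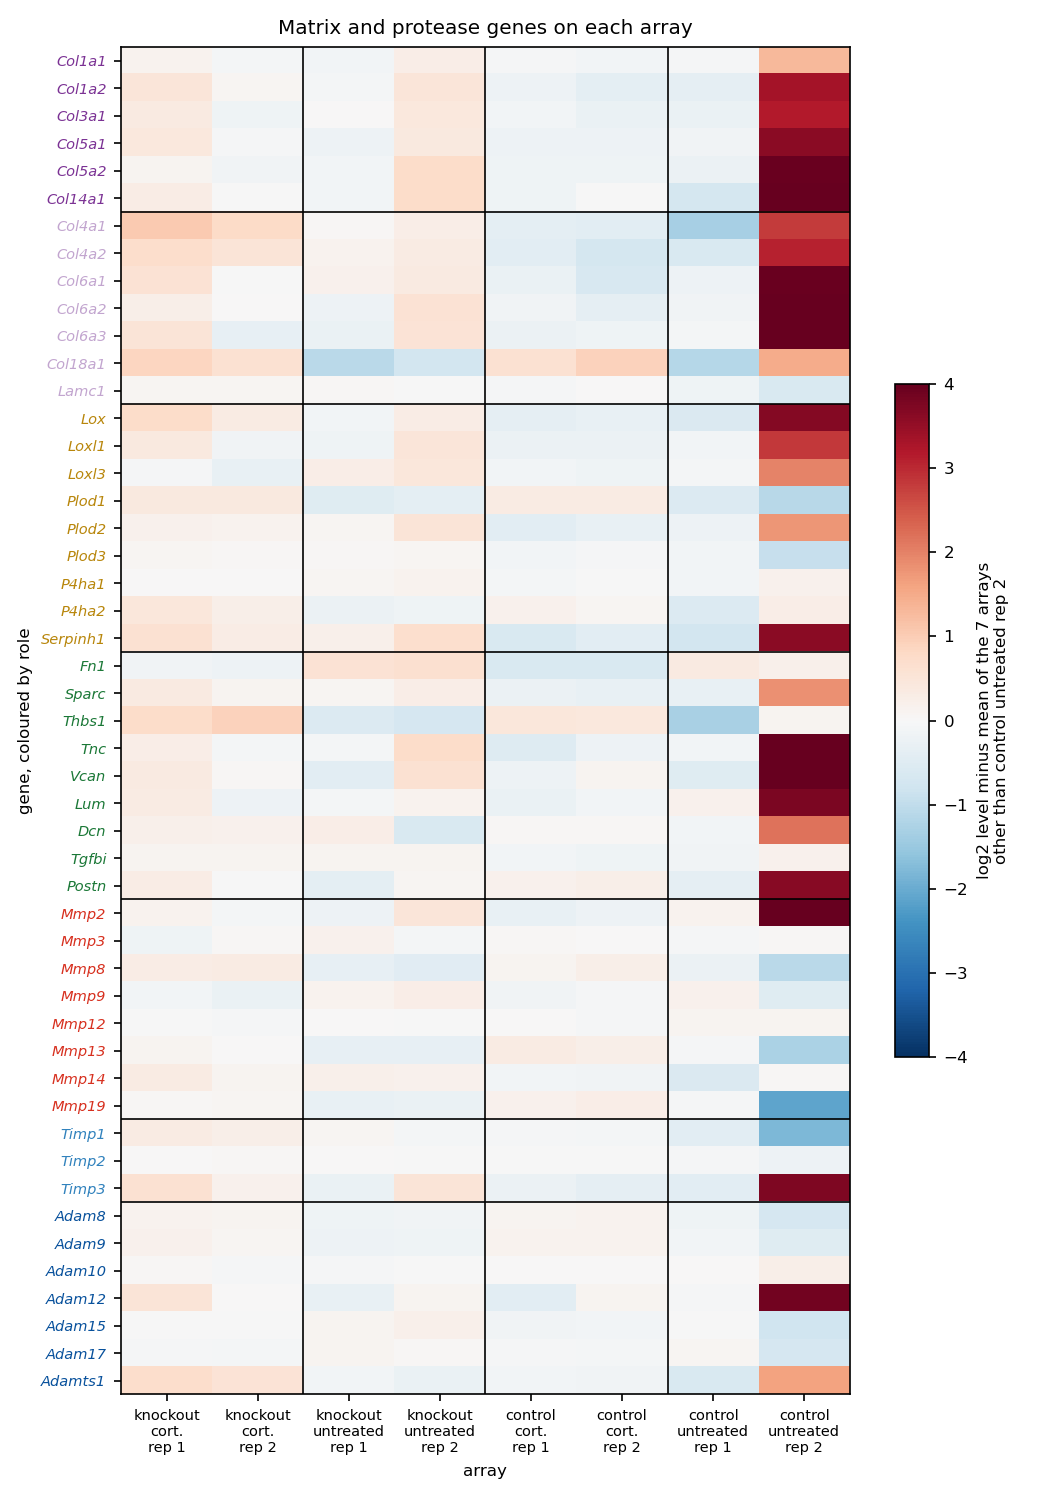
Log2 level of each of the 49 genes (rows, coloured and grouped by role) on each of the 8 arrays (columns), minus the mean of the 7 arrays other than control untreated replicate 2. The colour scale ends at 4 log2 units on either side, and the last column holds the excess of collagens and the deficit of Mmp19 and Timp1.

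Corticosterone raised a set of matrix and protease genes that was nearly the same in both genotypes. With 7 arrays, 12 of the 49 genes rose and 5 fell in knockout cells, 34.7% of them against 13.7% of all genes (5.75% rose and 7.95% fell). In control cells 13 rose and 1 fell, 28.6% against 10.8% of all genes (4.85% rose and 5.95% fell). The 12 that rose in knockout cells all rose in control cells (92.3% of the 13), and Fn1 fell in both. Basement membrane collagens, collagen hydroxylases, thrombospondin, collagenases and Adam proteases were among them, while 0 of the 6 fibrillar and fibril-associated collagens passed in either genotype (limma; medians -0.09 in knockout and 0.07 in control cells). The median over all 49 genes was 0.04 in knockout and 0.07 in control cells, against -0.02 and -0.00 over all genes. Among genes with a highest value of at least 6 on the 7 arrays, 18 of 46 matrix genes passed in knockout cells against 2671 of 10848. The share of all genes called was larger with this floor in both genotypes, so the gap to the matrix genes was smaller. With 8 arrays 1 of the 49 genes passed in each genotype, Fn1, against 0.148% of all genes in knockout cells and 0.170% in control cells.

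Thbs1, the matricellular glycoprotein thrombospondin 1, read 10.22 and 10.40 with corticosterone against 8.92 and 8.82 untreated in knockout cells, and 9.93 and 9.90 against 8.17 and 9.60 in control cells. The groups did not overlap in either genotype. The difference was 1.44 (SE 0.07, limma adjusted p = 1.22e-06), or 2.72-fold, in knockout cells. In control cells it was 1.74 (SE 0.08, adjusted p = 1.8e-06), or 3.35-fold, with 7 arrays. A second probe set of Thbs1 gave 1.34 and 1.27.

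Col18a1, a basement membrane collagen whose end fragment is endostatin, read 7.91 and 7.64 against 5.96 and 6.30 in knockout cells and 7.65 and 7.98 against 5.90 and 8.54 in control cells. In control cells the treated arrays lay above untreated replicate 1 and below replicate 2. The difference was 1.64 (SE 0.16, adjusted p = 0.000118) in knockout cells and 1.91 (SE 0.20, adjusted p = 0.000248) in control cells with 7 arrays, and a second probe set gave 1.37 and 1.50. Col4a1 read 9.39 and 9.09 against 8.40 and 8.60 in knockout cells and 7.94 and 7.92 against 6.99 and 11.13 in control cells. It rose by 0.74 (SE 0.11, adjusted p = 0.00151) and by 0.94 (SE 0.13, adjusted p = 0.00162) with 7 arrays, and the control difference was -1.13 with 8. A second probe set of Col4a1 gave 0.62 in knockout and 0.28 in control cells with 7 arrays, so the probe sets disagreed on the size in control cells. Col4a2, the partner of Col4a1, did not pass in either genotype, with differences of 0.39 and 0.05. For Lamc1, a laminin chain, the differences were 0.06 and 0.15, also not passing.

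Among the collagen processing enzymes, Plod1, a lysyl hydroxylase, read 11.14 and 11.14 against 10.28 and 10.37 in knockout cells and 11.09 and 11.08 against 10.21 and 9.64 in control cells. It was higher on every treated array than on every untreated array, control untreated replicate 2 included, by 0.81 (SE 0.04, adjusted p = 1.88e-06) and 0.88 (SE 0.05, adjusted p = 6.92e-06) with 7 arrays. P4ha2, a catalytic subunit of prolyl hydroxylase, read 7.45 and 7.22 against 6.75 and 6.81 in knockout cells and 7.15 and 7.06 against 6.45 and 7.23 in control cells, with differences of 0.55 (adjusted p = 0.0116) and 0.65 (adjusted p = 0.0177). Leaving out a further array ended its call: adjusted p was 0.101 in knockout cells without knockout corticosterone replicate 1, and in control cells 0.116 and 0.0792 without control corticosterone replicates 1 and 2. Loxl3, of the lysyl oxidase family, read 7.20 and 6.96 against 7.53 and 7.70 in knockout cells and fell by 0.53 there (adjusted p = 0.0137). That call was lost without knockout corticosterone replicate 2 (adjusted p = 0.116) or knockout untreated replicate 2 (0.0582), and in control cells Loxl3 read 7.15 and 7.10 against 7.17 and 9.25. Plod3, P4ha1, Plod2, Serpinh1, Lox and Loxl1 passed in neither genotype.

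Fn1, fibronectin, was lower with the hormone. It read 11.95 and 11.87 against 12.67 and 12.74 in knockout cells and 11.49 and 11.48 against 12.45 and 12.31 in control cells, so that each treated array lay below each untreated array of its genotype. The difference was -0.79 (SE 0.04, adjusted p = 8.26e-07) and -0.97 (SE 0.04, adjusted p = 1.14e-06) with 7 arrays. With 8 arrays it was -0.79 (adjusted p = 0.0394) and -0.90 (SE 0.07, adjusted p = 0.0253), and a second probe set, with 7 arrays, gave -1.70 and -1.61. When each of the 8 arrays was left out in turn, the 8-array calls were lost in 6 of 8 fits in each genotype, all but those without an untreated control array, with adjusted p of up to 0.625 without knockout untreated replicate 2 in knockout cells and up to 0.544 without control corticosterone replicate 1 in control cells.

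Of the 8 matrix metalloproteinases, the collagenases Mmp8 and Mmp13 and the protease Mmp19 rose in both genotypes. Mmp8 read 10.33 and 10.36 against 9.72 and 9.59 in knockout cells and 10.15 and 10.28 against 9.80 and 8.95 in control cells, without overlap. Its difference was 0.69 (SE 0.06, adjusted p = 5.1e-05) in knockout and 0.41 (SE 0.07, adjusted p = 0.00559) in control cells, where adjusted p was 0.0581 without control corticosterone replicate 2. Mmp13 read 9.98 and 9.87 against 9.54 and 9.54 in knockout cells and 10.19 and 10.09 against 9.83 and 8.59 in control cells. Its treated arrays lay above the untreated ones by 0.38 (adjusted p = 0.00156) and 0.31 (adjusted p = 0.019, and 0.136 without control corticosterone replicate 1). Mmp19 read 11.09 and 11.13 against 10.74 and 10.76 in knockout cells and 11.21 and 11.32 against 11.003 and 8.92 in control cells. The rise was 0.36 (adjusted p = 0.000381) and 0.26 (adjusted p = 0.0104, and 0.0751 without control corticosterone replicate 2).

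Mmp9, the type B gelatinase, read 7.77 and 7.63 against 8.02 and 8.14 in knockout cells and fell by 0.38 there (adjusted p = 0.0228), while control cells read 7.75 and 7.84 against 8.04 and 7.40, a difference of -0.25 that did not pass with 7 arrays. A second Mmp9 probe set fell further on the same arrays, by 1.66 in knockout and 1.60 in control cells. In knockout cells Mmp9 failed the test without control corticosterone replicate 1 (adjusted p = 0.0547) or 2 (0.0552), knockout corticosterone replicate 2 (0.166) or knockout untreated replicate 2 (0.0867). Mmp14, a membrane-bound metalloproteinase that activates the precursor of Mmp2, read 7.61 and 7.57 against 7.16 and 7.77 in control cells, a rise of 0.43 (adjusted p = 0.0477). That was lost without control corticosterone replicate 1 (0.2) or 2 (0.169), and knockout cells read 8.05 and 7.84 against 7.94 and 7.90. Mmp12, Mmp2 and Mmp3 passed in neither genotype. For Mmp12, which read 13.27 and 13.23 against 13.30 and 13.28 in knockout cells and 13.32 and 13.24 against 13.40 and 13.42 in control cells, the differences were -0.04 and -0.12.

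Timp1 read 9.63 and 9.55 against 9.39 and 9.24 in knockout cells and 9.26 and 9.24 against 8.89 and 7.51 in control cells. It rose by 0.28 (adjusted p = 0.0181) and 0.36 (adjusted p = 0.0166). Both calls depended on which arrays entered. In knockout cells adjusted p was 0.0523 and 0.0521 without control corticosterone replicates 1 and 2, 0.13 and 0.0538 without knockout corticosterone replicates 1 and 2, and 0.0686 without knockout untreated replicate 2, and in control cells it was 0.109 and 0.0909 without control corticosterone replicates 1 and 2. Timp2 and Timp3 did not pass. Timp2 read 12.91 and 12.92 against 12.89 and 12.87 in knockout cells and 12.88 and 12.88 against 12.83 and 12.69 in control cells.

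Adam8 read 13.22 and 13.17 against 12.88 and 12.92 in knockout cells and 13.18 and 13.19 against 12.88 and 12.40 in control cells, again with all treated arrays above all untreated ones. It rose by 0.29 (SE 0.03, adjusted p = 7.26e-05) and 0.30 (SE 0.03, adjusted p = 0.000309). Adam9, a related membrane protease, read 11.88 and 11.79 against 11.53 and 11.54 in knockout cells and 11.86 and 11.85 against 11.60 and 11.24 in control cells, and rose by 0.30 (adjusted p = 0.000338) and 0.25 (adjusted p = 0.00458). Adamts1, a secreted protease that cuts versican and aggrecan, read 8.03 and 7.89 against 7.21 and 7.07 in knockout cells and 7.21 and 7.21 against 6.73 and 8.95 in control cells. Its rise was 0.82 (SE 0.10, adjusted p = 0.000586) in knockout cells and 0.48 (SE 0.13, adjusted p = 0.0417) in control cells, where the difference with 8 arrays was -0.63. In control cells it was not called without control corticosterone replicate 1 (0.168) or 2 (0.167) and without knockout corticosterone replicate 1 (0.0618) or 2 (0.0614).

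Adam15 and Adam17 fell by small amounts in knockout cells. Adam17 read 12.22 and 12.19 against 12.38 and 12.30 there, a difference of -0.13 (SE 0.03, adjusted p = 0.0219), and 12.20 and 12.19 against 12.32 and 11.60 in control cells, where the difference of -0.13 did not pass. Adam15 read 11.32 and 11.31 against 11.45 and 11.54 in knockout cells, a difference of -0.18 (adjusted p = 0.0134), and 11.21 and 11.25 against 11.32 and 10.55 in control cells. Other probe sets of Adam15 gave -0.17, 0.09 and 0.34 in knockout cells, so they disagreed in direction. The Adam15 call was lost without knockout corticosterone replicate 1 (adjusted p = 0.0725) or 2 (0.0949) or knockout untreated replicate 2 (0.0501). Adam17 was not called without control corticosterone replicate 1 (0.0526) or 2 (0.0527), knockout corticosterone replicate 1 (0.082) or 2 (0.165), or knockout untreated replicate 1 (0.0696). Adam10 and Adam12 passed in neither genotype.

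**Figure D3:**
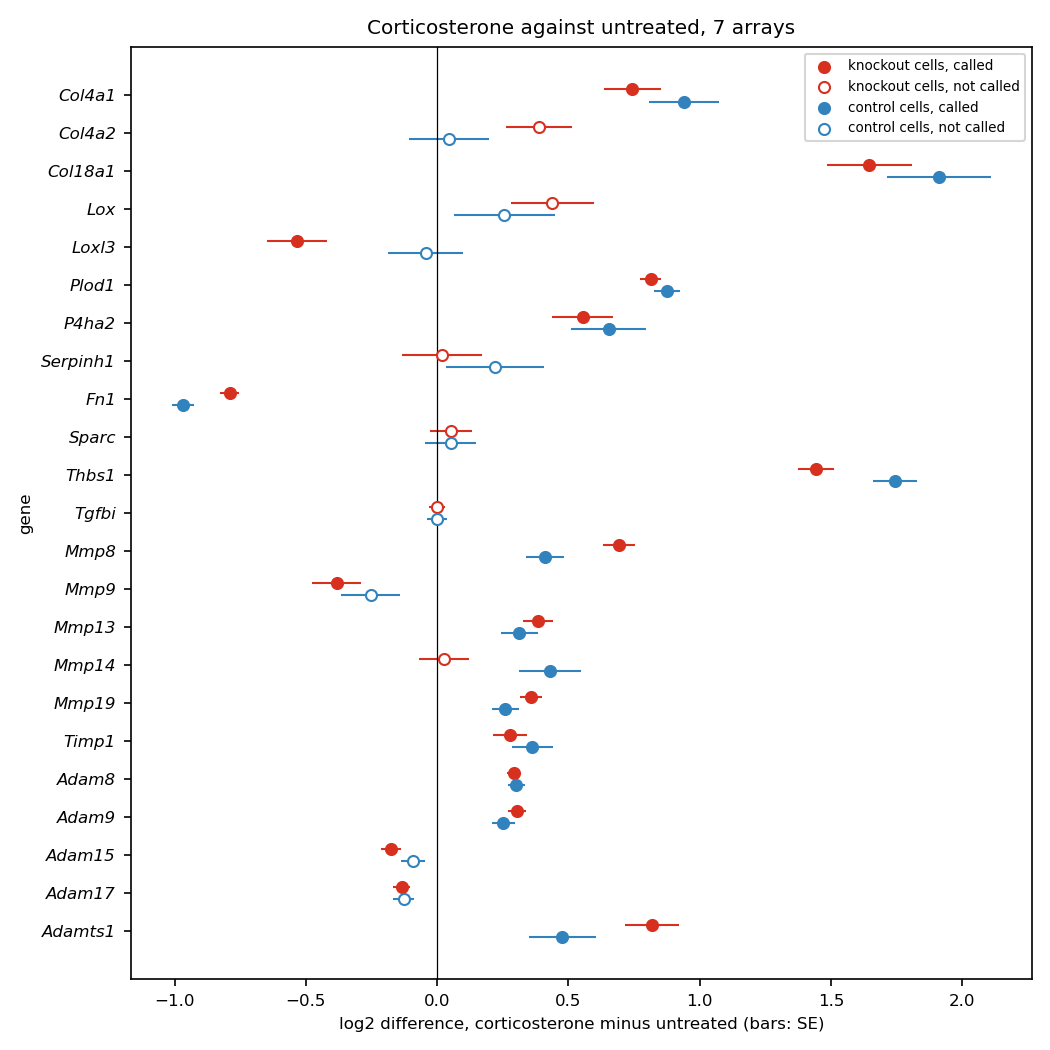
Log2 difference of corticosterone minus untreated with 7 arrays (x axis, bars are SE from limma) for the 23 genes called in at least 1 comparison, in knockout cells (red) and control cells (blue), filled where the adjusted p was under 0.05. Thbs1 and Col18a1 lie farthest to the right in both genotypes and Fn1 farthest to the left.

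Markers of other cells moved with the hormone too. With 7 arrays, 6 of 8 B cell markers and 4 of 10 T and NK cell markers fell in knockout cells, and the same numbers fell in control cells. The mean of the B cell markers was 6.20 and 6.32 with corticosterone against 7.30 and 7.19 untreated in knockout cells, and 6.24 and 6.30 against 7.09 and 6.31 in control cells. Of 11 cell cycle genes, 11 fell in knockout and 10 in control cells. Fibroblast and mesothelial markers were split, with 4 higher and 3 lower of 30 in knockout cells and 1 higher and 3 lower in control cells, and macrophage markers likewise, with 3 higher and 3 lower of 16 in knockout cells and 3 higher and 2 lower in control cells. Their part in the response of the matrix genes was not tested.

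Whether the hormone response differed between genotypes was tested as an interaction. None of the 49 genes passed, with either 7 arrays (0.0165% of all genes called by limma) or 8 arrays (0%). At an unadjusted p under 0.05, with 7 arrays, 6 of the 49 genes were found (Fn1, Mmp8, Thbs1, Mmp14, Loxl3 and P4ha1) among 1064 of all genes. The smallest adjusted p of the 49 was 0.813, for Fn1. The calls in knockout cells alone, Adam15, Adam17, Loxl3 and Mmp9, and in control cells alone, Mmp14, are therefore not shown to differ between genotypes. For Mmp14 the knockout response minus the control response was -0.40 (SE 0.15), for Loxl3 -0.49 (SE 0.18), for Mmp8 0.28 (SE 0.09), and for Thbs1 -0.30 (SE 0.11).

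Between genotypes, with 7 arrays, some matrix genes were higher in knockout cells. They came to 2 of 7 basement membrane and microfibrillar genes and 4 of 9 glycoproteins in each setting, 2 of 9 collagen processing enzymes with corticosterone and 1 of 9 without, and 0 of the 6 fibrillar and fibril-associated collagens (limma). With 7 arrays and corticosterone, 10 of the 49 genes were higher in knockout cells and 0 lower, 20.4% against 1.63% of all genes (1.29% higher and 0.335% lower). Without hormone 9 were higher and 1 lower, 20.4% against 1.99% of all genes (1.43% higher and 0.555% lower). The higher genes included 8 in both settings: Col4a1, Col4a2, Fn1, Serpinh1, Sparc, Tgfbi, Thbs1 and Timp1, or 80.0% of those with corticosterone and 88.9% of those without. The median difference over the 49 genes was 0.24 with corticosterone and 0.23 without, against 0.00 and 0.01 over all genes. Among genes with a highest value of at least 6 on the 7 arrays, 10 of 46 matrix genes passed with corticosterone against 295 of 10848. With 8 arrays 0 of the 49 genes and 0% of all genes passed in either setting (limma; at an unadjusted p under 0.05, 1 of the 49, or 2.04% against 1.26% of all genes, with corticosterone and 3, or 6.12% against 4.44%, without). Without hormone the comparison rests on 1 control array, and with 8 arrays the median over the 49 genes was -0.56.

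Col4a1 read 9.39 and 9.09 in knockout cells against 7.94 and 7.92 in control cells with corticosterone, and 8.40 and 8.60 against 6.99 and 11.13 without hormone. With corticosterone, where all 4 arrays are among the 7, the groups did not overlap. The difference was 1.31 (SE 0.11, adjusted p = 0.000256), or 2.48-fold. Without hormone it was 1.51 (SE 0.13, adjusted p = 0.000429), or 2.84-fold, with 7 arrays and -0.56 with 8. Col4a2, whose promoter letters are shown above beside those of Col4a1, read 8.23 and 8.05 against 7.10 and 6.82 with corticosterone, a difference of 1.18 (SE 0.13, adjusted p = 0.00124). Without hormone it read 7.66 and 7.84 against 6.91 and 10.59, a difference of 0.84 (SE 0.15, adjusted p = 0.0279) with 7 arrays and -1.002 with 8, and that call was lost without control corticosterone replicate 1 (0.0559) or 2 (0.0543) or knockout untreated replicate 2 (0.0534). A second probe set of Col4a1 gave 1.23 with corticosterone and 0.89 without. Col18a1 did not pass, with differences of -0.04 and 0.23.

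The fibrillar collagens did not pass in either setting. Col1a1 read 12.10 and 11.89 in knockout cells against 11.93 and 11.85 in control cells with corticosterone, and 11.84 and 12.23 against 11.90 and 13.27 without hormone, so its groups overlapped. With 7 arrays its differences were 0.10 with corticosterone and 0.13 without, but its other probe set gave 0.70 and 0.59, so they disagreed on the size. Col1a2 read 9.69 and 9.28 against 9.01 and 8.81 with corticosterone and 9.12 and 9.68 against 8.84 and 12.53 without, differences of 0.57 and 0.56. For Col3a1 the values were 10.22 and 9.67 against 9.74 and 9.60 with corticosterone and 9.89 and 10.28 against 9.60 and 13.04 without, differences of 0.27 and 0.48. A second probe set gave 0.21 and 0.26 for Col3a1. Other probe sets of Col1a2 gave 0.76 and 0.44, and, at a mean level of only 2.87, 0.09 and 0.38. The median difference of the 6 fibrillar and fibril-associated genes was 0.25 with corticosterone and 0.52 without.

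Serpinh1, the chaperone known as Hsp47, read 9.12 and 8.81 in knockout cells against 7.92 and 8.08 in control cells with corticosterone and 8.71 and 9.18 against 7.78 and 12.12 without hormone. It was higher by 0.96 (SE 0.15, adjusted p = 0.0133) and 1.17 (SE 0.19, adjusted p = 0.0146), while the difference without hormone was -1.003 with 8 arrays. Its probe set is of a kind that can bind related transcripts, and a second probe set gave 1.04 and 1.07. With corticosterone Serpinh1 was not called without control corticosterone replicate 1 (0.235) or 2 (0.137) or knockout corticosterone replicate 1 (0.118), and without hormone it was not called without control corticosterone replicate 1 (0.0614) or 2 (0.0613). Lox, the lysyl oxidase that cross-links collagen and elastin, read 8.72 and 8.30 against 7.63 and 7.68 with corticosterone, a difference of 0.86 (SE 0.16, adjusted p = 0.0302). That was lost without control corticosterone replicate 1 (0.323) or 2 (0.29) or knockout corticosterone replicate 1 (0.224). Without hormone Lox read 7.86 and 8.28 against 7.40 and 11.66, and its difference of 0.68 did not pass with 7 arrays.

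The matrix glycoproteins gave 4 of 9 genes in both settings. Fn1 read 11.95 and 11.87 in knockout cells against 11.49 and 11.48 in control cells with corticosterone, a difference of 0.43 (SE 0.04, adjusted p = 0.000243). Without hormone it read 12.67 and 12.74 against 12.45 and 12.31, a difference of 0.25 (adjusted p = 0.0219) that was lost without control corticosterone replicate 1 (0.0759) or 2 (0.076). Here both untreated control arrays lay below both knockout arrays. Thbs1 read 10.22 and 10.40 against 9.93 and 9.90 with corticosterone and 8.92 and 8.82 against 8.17 and 9.60 without, and was higher by 0.40 (adjusted p = 0.0215) and 0.70 (SE 0.08, adjusted p = 0.00297). Without hormone its difference with 8 arrays was -0.02. With corticosterone it no longer passed without control corticosterone replicate 1 (0.234) or 2 (0.292) or knockout corticosterone replicate 2 (0.159).

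Sparc, a collagen-binding glycoprotein, read 11.83 and 11.60 in knockout cells against 11.26 and 11.21 in control cells with corticosterone and 11.57 and 11.77 against 11.18 and 13.33 without hormone. It was higher by 0.49 (adjusted p = 0.0154) and 0.48 (adjusted p = 0.0387), while the difference without hormone was -0.59 with 8 arrays. Other Sparc probe sets gave 1.54 and -0.03 with corticosterone and 1.11 and -0.10 without, so they disagreed. With corticosterone Sparc was not called without control corticosterone replicate 1 (0.18) or 2 (0.25) or knockout corticosterone replicate 1 (0.096), and without hormone it was not called without control corticosterone replicate 1 (0.125) or 2 (0.125) or knockout untreated replicate 2 (0.0538). Tgfbi, a secreted integrin-binding protein induced by TGF-beta, read 11.88 and 11.88 against 11.67 and 11.62 with corticosterone and 11.89 and 11.87 against 11.64 and 11.95 without. Its differences were 0.24 (SE 0.03, adjusted p = 0.00418) and 0.24 (SE 0.04, adjusted p = 0.0141), and the one without hormone was 0.09 with 8 arrays. Other Tgfbi probe sets gave 0.16 to 0.27 with corticosterone, and 0.21, 0.11 and -0.0041 without, where they disagreed. Without hormone the call was lost with the mean of probe sets (0.246), no variance trend (0.242), only the arrays compared (0.123) and 5 arrays (0.0543). With corticosterone it was lost without control corticosterone replicate 2 (0.0778) or knockout corticosterone replicate 1 (0.0564).

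Among proteases and inhibitors, Timp1 was higher in knockout cells in both settings, by 0.34 (adjusted p = 0.034) with corticosterone, where it read 9.63 and 9.55 against 9.26 and 9.24, and by 0.42 (adjusted p = 0.0285) without, where it read 9.39 and 9.24 against 8.89 and 7.51. With corticosterone it failed the test whenever 1 of the 4 arrays compared was left out, with adjusted p of 0.285 and 0.35 without control replicates 1 and 2 and 0.294 and 0.0989 without knockout replicates 1 and 2. Without hormone it was lost without control corticosterone replicate 1 (0.0997) or 2 (0.0989). Adamts1 read 8.03 and 7.89 against 7.21 and 7.21 with corticosterone, a difference of 0.74 (SE 0.10, adjusted p = 0.00627), and was lost without control corticosterone replicate 1 (0.111) or 2 (0.116) or knockout corticosterone replicate 1 (0.0855). Without hormone Adamts1 read 7.21 and 7.07 against 6.73 and 8.95, a difference of 0.40 with 7 arrays that did not pass.

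Mmp14 read 7.94 and 7.90 in knockout cells against 7.16 and 7.77 in control cells without hormone, with both knockout arrays above both control arrays. The difference was 0.76 (SE 0.12, adjusted p = 0.012) and was lost without control corticosterone replicate 1 (0.0559) or 2 (0.0558). With corticosterone Mmp14 read 8.05 and 7.84 against 7.61 and 7.57, and its difference of 0.35 did not pass. Other Mmp14 probe sets gave 0.68 and 0.37 without hormone. Mmp19 was the 1 gene lower in knockout cells, at 10.74 and 10.76 against 11.003 and 8.92 without hormone, a difference of -0.25 (adjusted p = 0.0436) that was 0.79 with 8 arrays. It was lost without control corticosterone replicate 1 (0.0686) or 2 (0.0697), knockout corticosterone replicate 1 (0.0818) or 2 (0.0833), or knockout untreated replicate 2 (0.051). Mmp2, Mmp3, Mmp8, Mmp9, Mmp12 and Mmp13 did not pass in either setting: Mmp13 and Mmp8 differed by -0.29 and -0.15 without hormone and by -0.21 and 0.13 with it.

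**Figure D4:**
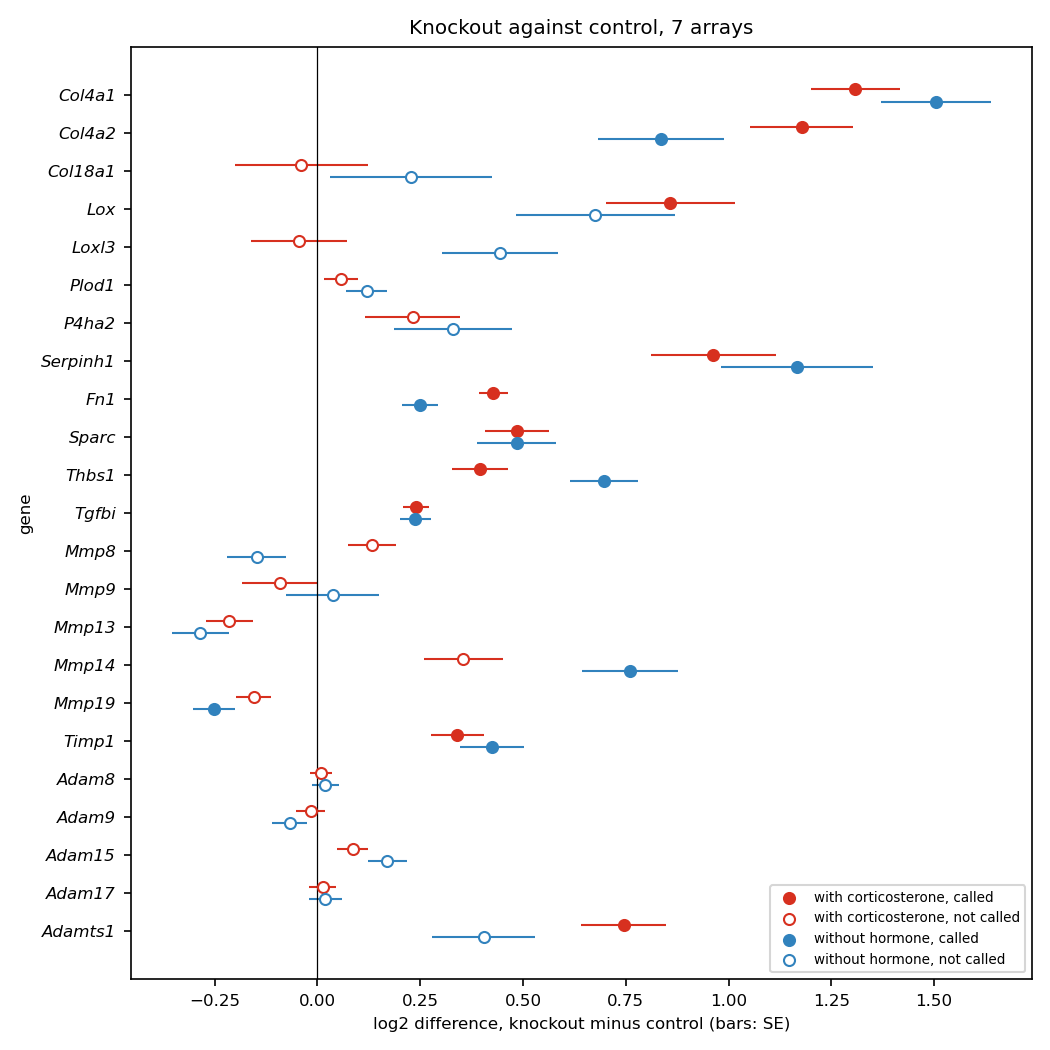
Log2 difference of knockout minus control with 7 arrays (x axis, bars are SE from limma) for the same 23 genes, with corticosterone (red) and without hormone (blue), filled where the adjusted p was under 0.05. Col4a1, Col4a2 and Serpinh1 lie farthest to the right, and Mmp19 without hormone is the filled point left of 0.

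Markers of other cells and the excess on control untreated replicate 2 were set beside the genotype differences. Of the 10 genes higher in knockout cells with corticosterone, 6 were among the 25 that read over 2 log2 units higher on that array. They were Adamts1, Col4a1, Col4a2, Lox, Serpinh1 and Sparc. Of the 9 higher without hormone, 4 were among those 25 (Col4a1, Col4a2, Serpinh1 and Sparc). The 25 made up 51.0% of all the matrix genes described here, so 6 of 10 lay above that share and 4 of 9 below it. The mean of the fibroblast and mesothelial markers was 6.17 and 6.03 in knockout cells against 5.87 and 5.85 in control cells with corticosterone, and 5.97 and 6.11 against 5.86 and 7.80 without hormone. Of these 30 markers 1 was called in each setting, Tagln, an actin-binding protein of smooth muscle and activated fibroblasts, higher in knockout cells by 0.92 (SE 0.12) with corticosterone and 1.17 (SE 0.14) without (named after its values were seen). Pdgfra read 8.28 and 7.73 in knockout cells against 7.86 and 7.82 in control cells with corticosterone and 8.22 and 8.57 against 7.98 and 12.05 without, and was not called. Of 11 cell cycle genes, 9 were higher in knockout cells with corticosterone and 4 without, with list means of 8.79 and 8.60 against 8.09 and 8.10 with the hormone and 9.33 and 9.41 against 8.82 and 10.60 without. Their part in the genotype differences was not tested.

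**Figure D5:**
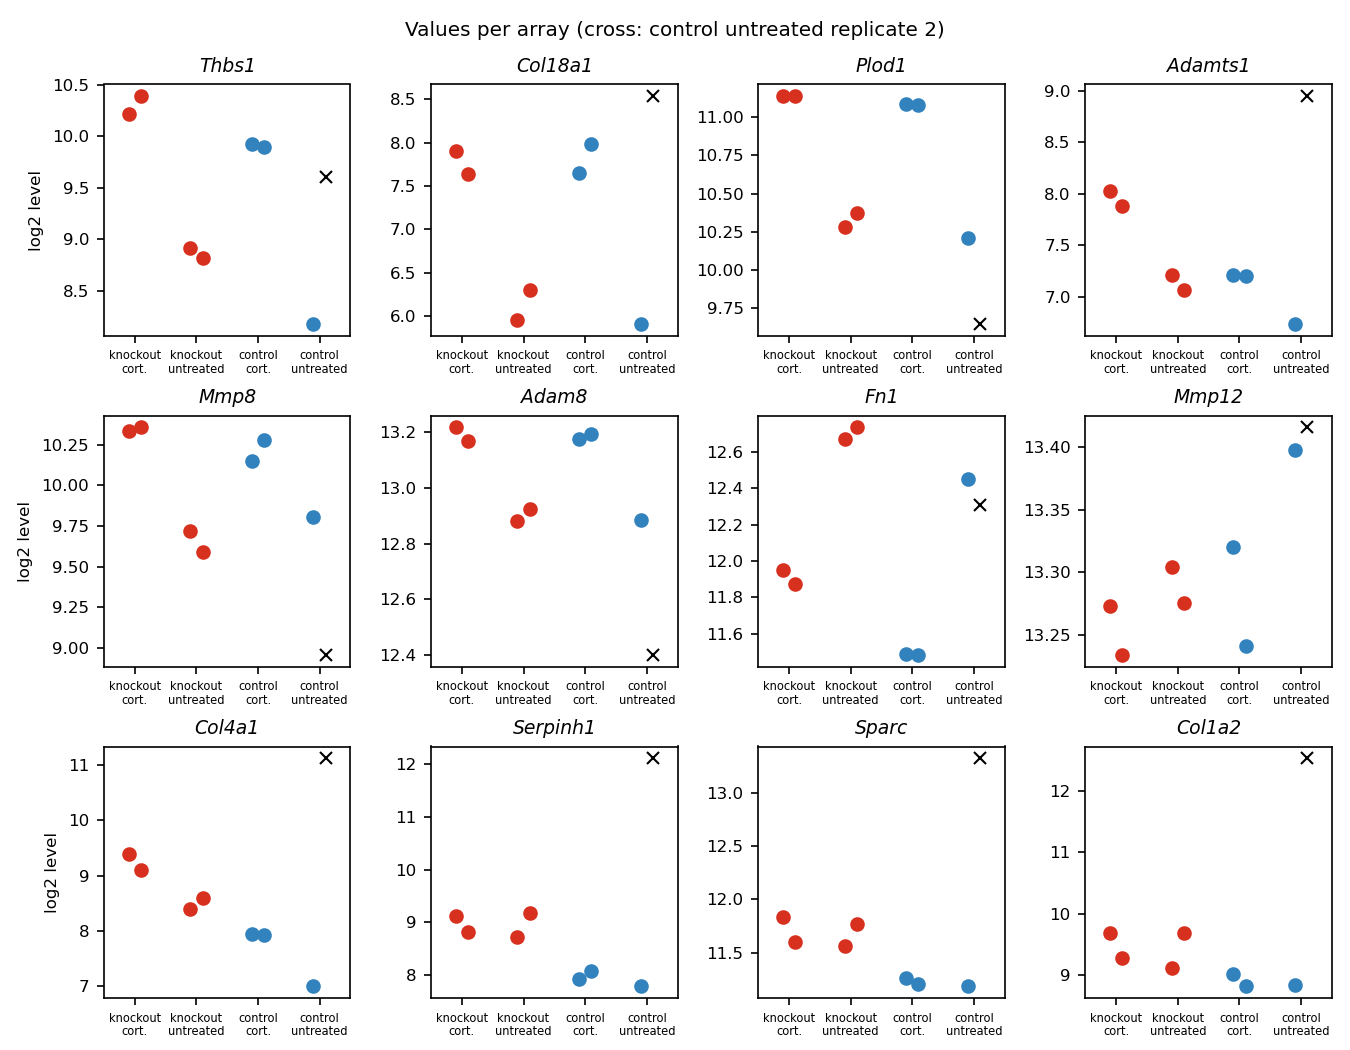
Log2 level of 12 genes on each array (points; red for knockout, blue for control, black crosses for control untreated replicate 2), each panel with its own scale. Thbs1, Plod1, Mmp8 and Adam8 follow the hormone, Fn1 runs the other way, and Col4a1, Serpinh1 and Sparc are higher on the knockout arrays than on the control arrays other than the cross.

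Other matrix genes were read from 4 further lists with 7 arrays. Of 23 other collagens, 0 passed in either hormone comparison by limma, and Col8a1 was the 1 gene called between genotypes, higher in knockout cells with corticosterone by 1.43 (named after its value was seen). Of 48 other basement membrane, elastic fibre and matricellular genes, 5 rose and 1 fell with corticosterone in knockout cells, and 4 rose and 3 fell in control cells. These counts, 6 and 7 of 48, were near the 13.7% and 10.8% called among all genes. The laminin chain Lama3 rose by 0.61 (adjusted p = 0.0115) and 1.11 (adjusted p = 0.00161), and the elastic fibre protein Fbln5 fell by 0.78 (adjusted p = 0.00489) and 0.90 (adjusted p = 0.00845). Fbln2 rose by 0.72 in knockout cells and Ltbp2 fell by 0.87 in control cells. Of 16 other collagen processing enzymes, 2 fell in each genotype, 12.5%. The collagen galactosyltransferase Colgalt1 fell by 0.43 in knockout and 0.35 in control cells, joined by Crtap (-0.12) in knockout and Tll1 (-0.48) in control cells.

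Of 28 other metalloproteinases and inhibitors, 3 rose and 1 fell in knockout cells and 2 rose in control cells, 14.3% and 7.14%, again near the shares of all genes. Mmp10, a stromelysin, read 7.13 and 6.87 with corticosterone against 5.75 and 6.07 untreated in knockout cells and 7.38 and 6.99 against 5.23 and 4.39 in control cells. Its treated arrays lay above the untreated ones in both genotypes, by 1.09 (SE 0.17, adjusted p = 0.00238) and 1.95 (SE 0.21, adjusted p = 0.000327). Adam19, a membrane protease, read 7.95 and 7.87 against 6.90 and 7.03 in knockout cells and 8.33 and 8.29 against 6.90 and 9.01 in control cells, with rises of 0.95 (adjusted p = 0.000118) and 1.41 (adjusted p = 5.9e-05). Mmp23 rose by 0.62 in knockout cells. Chosen after looking at their values, Pcolce, which enhances the cutting of procollagen ends, was higher in knockout cells by 1.68 (adjusted p = 8.65e-05) with corticosterone and 1.60 (adjusted p = 0.000499) without. Likewise chosen with values in view, Mmp11 was higher by 1.82 and 1.71, and the matricellular gene Ccn1 by 1.32 and 1.73. Mmp11 read 6.31 and 6.12 in knockout cells against 4.36 and 4.42 in control cells with corticosterone and 6.04 and 6.41 against 4.51 and 6.49 without. Ccn1 read 9.38 and 9.02 against 7.86 and 7.89 with corticosterone and 8.92 and 9.27 against 7.36 and 11.45 without. With 8 arrays none of the 3 passed in either setting, and the differences without hormone were -0.38 for Pcolce, 0.72 for Mmp11 and -0.31 for Ccn1. Pcolce read 7.77 and 7.65 against 6.14 and 5.91 with corticosterone and 7.53 and 7.57 against 5.95 and 9.91 without, so its untreated control replicates lay on either side of the knockout arrays. Between genotypes the further lists gave 1 of 23 collagens, 3 of 48 basement membrane, elastic fibre and matricellular genes, 4 of 16 processing enzymes (3 higher and 1 lower) and 1 of 28 metalloproteinases and inhibitors with corticosterone, and 0, 1, 1 and 1 without, against 1.63% and 1.99% of all genes.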

How the data were processed

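Per the submitters' processing notes, the authors made the deposited log2 values with RMA in R 2.7, a method that corrects background, equalises the arrays' distributions and combines each set's probes. No detection calls were used. RNA was labelled with the Ovation Biotin system, per the labels' protocols. Of 45101 probe sets, 64 were controls, 932 had several genes in the platform annotation, 9160 had none and 34945 had 1, of which 34741 were matched to a current symbol of GRCm38.p6. The set of highest mean level over all 8 arrays stood for its gene.

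limma 3.58.1 (R 4.3.3) fitted the mean of each of the 4 groups for all 18193 genes, with a common variance per gene moderated by a trend on level, giving 4 residual degrees of freedom with 8 arrays and 3 with 7. There were 5 contrasts, with Benjamini-Hochberg adjustment over all genes and no minimum fold. The fit was tested on simulated data. Genes, lists, tests and alternatives were chosen with earlier results of these data known. Values per array are given for each gene called in any contrast whose groups did not overlap, the 4 collagens and the 4 proteases or inhibitors of highest mean, and the 6 genes with the largest excess on control untreated replicate 2. From each further list the 3 called genes with the largest change per hormone contrast are named. The alternatives were 1 array left out, a replicate block, array weights, no trend, a floor of 6 on the highest value, the mean of probe sets, the arrays compared alone, and, chosen after seeing the data, 5 arrays, from which knockout corticosterone replicate 1 and knockout untreated replicate 2 were dropped as well.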

Additional observations from a re-analysis of the deposited data

How the results depend on the processing

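Of the 51 gene calls made with 7 arrays, 17 were kept under every alternative run on those arrays or fewer: Adam8, Adam9, Adamts1, Mmp13, Mmp19 and Mmp8 for corticosterone in knockout cells, Col18a1, Col4a1, Fn1, Plod1 and Thbs1 for corticosterone in both genotypes, and Col4a1 for genotype with corticosterone. With control untreated replicate 2 kept, 41 calls were lost and 8 changed sign: Adamts1 (-0.63) and Col4a1 (-1.13) for corticosterone in control cells, and Col4a1 (-0.56), Col4a2 (-1.002), Serpinh1 (-1.003), Sparc (-0.59), Thbs1 (-0.0196) and Mmp19 (0.79) for genotype without hormone. With the mean of all probe sets, Adam15 gave 0.0215 for corticosterone in knockout cells. The array that stands apart changes these values by its own inclusion, and the cause of its state was not tested. Control untreated replicate 1 was not left out of any fit with 7 arrays, since no untreated control array would then remain. The calls kept in control cells all rest on that 1 untreated array and could not be lost through it.

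Leaving out 1 array with 7 arrays gave 13 to 21 called genes for corticosterone in knockout cells, 8 to 17 in control cells, 3 to 12 for genotype with corticosterone, 3 to 20 without hormone and 0 to 0 for the interaction. With 8 arrays the ranges were 0 to 17, 0 to 46, 0 to 10, 0 to 45 and 0 to 44, in the same order. With 7 arrays and no variance trend, 31 of the 51 calls were lost, and 6 genes were called for corticosterone in control cells, 0 for genotype without hormone and 2 with corticosterone. For genotype without hormone, 6 were called with 5 arrays and 4 with only the arrays compared.

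With 8 arrays, corticosterone in knockout cells called 15 genes with array weights and 15 with only the arrays compared, but 0 with no trend, the mean of probe sets or the replicate block. In control cells each of array weights, no trend, the mean of probe sets, the replicate block and only the arrays compared called 0. Genotype with corticosterone called 8 with array weights and 12 with only the arrays compared. The cause was not tested.

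The groups share replicate numbers, but nothing says that the numbers pair samples, and the correlation of replicate 1 minus 2 between groups ran from -0.29 to 0.40. With the replicate block and 7 arrays, 17 genes were called for corticosterone in knockout cells, 12 in control cells, 8 for genotype with corticosterone and 5 without hormone. The number of arrays limits all of these counts.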
